A study of Mus musculus with 14 samples.

Results

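The neurons described here are 210 GABAergic cells of the mouse lateral hypothalamic area (LHA) that carry Nts, the transcript of the neurotensin precursor, at 3 or more UMIs (unique molecular identifiers, each standing for 1 captured RNA molecule). They were chosen by their own counts. Starting from 28410 barcodes, 9891 had at least 1000 UMIs with at most 20% from mitochondrial genes. A GABAergic neuron needed a sum of at least 2 UMIs over Gad1, Gad2 and Slc32a1 (the GABA-synthesising enzymes and the vesicular GABA transporter), a sum above that of Slc17a6 (the vesicular glutamate transporter VGLUT2), and under 0.5% of its UMIs from each of Hcrt and Pmch (the hypocretin/orexin and melanin-concentrating hormone precursors), which left 3451. Of these, 2669 had under 2 UMIs of Ecel1 and Hmx3 together, and 210 of the 2669 had at least 3 Nts UMIs and more Nts than Sst (somatostatin) UMIs. The members are therefore 0.739% of all barcodes, 2.12% of the barcodes kept and 6.09% of the GABAergic neurons.

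The study profiled single cells of the lateral hypothalamus by Drop-seq, in which cells are captured in droplets with barcoded beads that tag the 3′ ends of their RNA. Its 14 mice were male wildtype C57BL/6J animals with free access to food and water on a reversed light cycle: 7 ate a high fat diet and 7 ate a control chow of matched taste. How long the diets lasted and how old the mice were are not given in the labels. Each library was 1 mouse, and sequencing was done in 2 pools: pool 1 held 4 control and 4 high fat diet mice, pool 2 held 3 and 3. Mice are numbered here within each diet in the order of the labels. A p-value between the diets therefore sets a difference against the spread between animals. Where cell sets are compared within mice, the difference is set against how much it varies over mice. The edgeR p-values also draw on the spread of other genes.

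Neurotensin is a short peptide cut, together with neuromedin N, from a larger precursor, stored in dense-core vesicles and released onto the receptors Ntsr1 and Ntsr2. In mice, many neurotensin neurons of the LHA are GABAergic, some send axons to the ventral tegmental area, and their activity has been tied to drinking, movement and reduced feeding. Galanin (Gal), CART (Cartpt) and corticotropin-releasing hormone (Crh) are other peptides made by hypothalamic neurons, and each can be stored beside a fast transmitter such as GABA.

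The promoters of Nts, Gal and Cartpt are shown because these peptide genes were measured in overlapping groups of the members. The sequences come from RefSeq on GRCm38.p6, cover 250 bases before the start of the gene and 50 after it, and are written 5′ to 3′ along the gene. Capitals mark the letters of TGACNTCA and TGACG, the full and the short form of the element bound by CREB-type factors, and of TGANTCA, the form bound by AP-1. All were searched on both strands, CGTCA is TGACG read on the other strand, and TGACG can lie inside TGACNTCA. Of 4 peptide genes looked up, 3 were matched (Crh was the other). Nts lies at chr10:102490369-102490668, Gal at chr19:3414495-3414794 and Cartpt at chr13:99900634-99900933, all on the minus strand.
Nts: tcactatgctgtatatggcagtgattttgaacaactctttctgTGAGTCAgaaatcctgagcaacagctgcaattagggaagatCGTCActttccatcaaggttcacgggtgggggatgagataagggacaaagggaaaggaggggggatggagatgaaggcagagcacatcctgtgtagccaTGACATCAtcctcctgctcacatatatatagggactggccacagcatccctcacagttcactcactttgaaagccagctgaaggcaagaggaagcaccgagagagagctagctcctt
Gal: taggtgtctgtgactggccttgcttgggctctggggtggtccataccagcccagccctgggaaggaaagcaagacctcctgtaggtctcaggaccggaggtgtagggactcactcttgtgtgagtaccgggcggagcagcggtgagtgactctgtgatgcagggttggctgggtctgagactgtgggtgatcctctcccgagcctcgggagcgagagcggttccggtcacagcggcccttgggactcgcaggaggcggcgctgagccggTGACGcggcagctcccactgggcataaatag
Cartpt: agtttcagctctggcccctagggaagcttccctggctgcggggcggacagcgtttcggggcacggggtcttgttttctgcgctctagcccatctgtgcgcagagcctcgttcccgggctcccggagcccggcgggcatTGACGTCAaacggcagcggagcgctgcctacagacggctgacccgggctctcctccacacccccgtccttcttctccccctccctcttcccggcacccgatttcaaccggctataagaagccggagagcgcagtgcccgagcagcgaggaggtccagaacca
The Nts promoter held TGAGTCA with its first base at -207, CGTCA at -166 and TGACATCA at -67 from the start. The Cartpt promoter held TGACGTCA at -112, which contains both short forms, and the Gal promoter held TGACG at 20 bases after the start. Among 32817 mouse promoters of the same length, 8.84% held TGACNTCA, 7.81% held TGANTCA and 20.8% held TGACG, so these letters are common and a match is a description of the sequence alone.

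Of the 210 neurons, 100 came from control mice and 110 from mice on the high fat diet, and 13 of the 14 mice gave at least 1. Control mice 1 to 5 gave 28, 13, 22, 20 and 12, and high fat diet mice 1 to 4 gave 31, 13, 26 and 27. Tests across genes used these 9 mice, whose 192 members were summed within each mouse. Control mice 6 and 7 gave 4 and 1, and high fat diet mice 5, 6 and 7 gave 7, 6 and 0, too few for that test. The members had a median of 4056.5 UMIs (1180 to 14546) and 2170.5 genes, against medians of 3487 UMIs in the other GABAergic neurons, 5318.5 in the GABAergic neurons with Ecel1 or Hmx3 and 1468 in oligodendrocyte barcodes.

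The libraries ranged from 147470 to 5611524 UMIs in total. Control mice 1 and 2 and high fat diet mouse 1, all from pool 1, stood apart from the rest when the GABAergic neurons of each mouse were summed. On the first principal component, which held 45.6% of the variance over 11 mice, they lay at 20.4, 36.6 and 31.8, while the other 8 mice lay between -18.9 and -5.80. The results are therefore also given without these 3 mice wherever that changes a call. Over all libraries 110 barcodes appeared in more than 1 mouse, of which 2 were kept and 1 was a member. The doublet caller Scrublet marked 91 of 9606 barcodes in 11 mice (0.947%), including 1 member; doublets stayed in the main sets and were left out as an alternative.

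The marker check showed neurons. Snap25, a protein of synaptic vesicle fusion, was found in 206 of the 210 members, and Meg3 in 208. Of the oligodendrocyte genes, Mag gave 29 UMIs in 22 members and Mog 9 UMIs in 8. The microglial genes C1qa, P2ry12 and Tmem119 and the progenitor genes Cspg4 and Gpr17 were at 0, Cldn5 of endothelial cells gave 2 UMIs, and Aqp4 of astrocytes gave 1. Aldoc, which is abundant in astrocytes but also present in neurons, was found in 184 members. Summed over the oligodendrocyte markers, the members had 221 to 607 UMIs per 1000000 in control mice and 169 to 1546 on the high fat diet, against 1478 to 5064 and 973 to 1973 in the other GABAergic neurons. For the astrocyte markers the sums were 1095 to 1472 and 986 to 1307 in the members, against 762 to 1067 and 886 to 1171.

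Nts and the GABA genes chose the members, so their levels are a description. The members had 3 to 108 Nts UMIs with a median of 8, and 37 had 20 or more. At the threshold, 35 members had exactly 3 Nts UMIs, while 50 neurons just outside had 2 and more Nts than Sst. Per 1000000 UMIs, Nts stood at 2964, 2246, 1795, 1788 and 2229 in control mice 1 to 5 and at 2808, 1905, 4740 and 3613 in high fat diet mice 1 to 4. High fat diet mice 3 and 4 were the highest, and the rest of that group overlapped the controls. Gad2 was found in 207 members, Slc32a1 in 164 (78.1%) and Gad1 in 160. Slc17a6 was found in 19, Sst in 10, and 1 UMI of Ecel1 or Hmx3 in 51.

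Nts was not confined to these neurons. Among 573 kept barcodes with 3 or more Nts UMIs, the members were 36.6%, GABAergic neurons with Ecel1 or Hmx3 were 34.6% and glutamatergic neurons were 21.3%. Free RNA set a low floor in oligodendrocyte barcodes: 1.51% of 3311, a cell type that should lack it, had any Nts UMI, and 0 had 3 or more. Their median depth was 1468 UMIs against 4056.5 in the members, and the floor at the depth of the members was not tested.

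The name of these cells was proposed with Nts, Slc32a1, Gal, Cartpt and Crh as markers, and the last 3 did not set the members apart. Gal was found in 40 members (19.0%, exact 95% interval 14.0 to 25), against 14.0% of the other GABAergic neurons, 48.5% of those with Ecel1 or Hmx3 and 1.39% of oligodendrocyte barcodes. Cartpt was found in 38 members (18.1%), against 11.2%, 22.1% and 1.18% in the same order. Crh was found in 13 members (6.19%), against 5.04%, 9.46% and 0.211%. With every cell thinned to 1000 UMIs, the shares in the members were 15.2% for Gal, 11.0% for Cartpt and 4.29% for Crh, and Gal in the other GABAergic neurons was 8.30%. All exceeded the oligodendrocyte level, which marks what free RNA gives, although oligodendrocyte barcodes were shallower. The intervals cover counting error only.

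**Figure D1:**
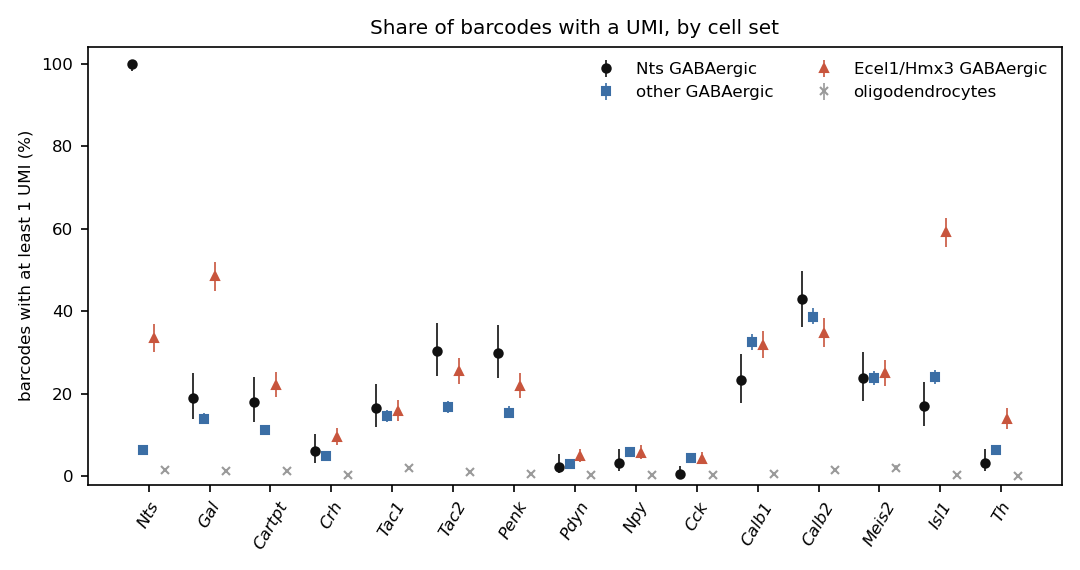
Share of barcodes with at least 1 UMI of each of 15 genes, in percent, in the Nts GABAergic neurons, the other GABAergic neurons, the GABAergic neurons with Ecel1 or Hmx3 and oligodendrocyte barcodes; bars are exact 95% intervals over barcodes. Gal reached 19.0% of the Nts neurons and 48.5% of the Ecel1 or Hmx3 neurons.

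Other peptides were found as often. Tac2, the precursor of neurokinin B, was found in 64 members (30.5%; 20.5% thinned) against 16.7% of the other GABAergic neurons (13.1% thinned). Penk, the precursor of enkephalins, was found in 63 (30.0%; 16.7% thinned) against 15.5% (9.72% thinned). Tac1, which encodes substance P, was found in 35 members (16.7%), and Calb2, the calcium-binding protein calretinin, in 90 (42.9%). Dlk1, a Notch-related membrane protein, was found in 84 (40.0%). Hcrt and Pmch appeared in 32.9% and 25.2% of the members, but also in 27.3% and 15.1% of oligodendrocyte barcodes. Thinned, the shares were 11.4% and 6.67% against 19.3% and 10.1%. The selection capped both genes in the members but not in the oligodendrocyte barcodes, so this comparison cannot tell background from expression. Ddc, which encodes an enzyme of monoamine synthesis, was found in 18.1% of the members against 13.6% of oligodendrocyte barcodes, and thinned in 7.62% against 8.73%, while 21 members had 2 or more UMIs and 1 had 19. The leptin receptor Lepr was found in 0 of 210 members, which allows a share of up to 1.43% with a UMI. The neurotensin receptor Ntsr1 was found in 13 members (6.19%), against 6.43% of the other GABAergic neurons, and Ntsr2 in none.

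Within the members the peptides were unevenly combined. Counting a member as positive at 2 or more UMIs, 35 members in 10 mice had Gal, 28 in 11 mice had Cartpt and 10 in 5 mice had Crh. Together 51 members (24.3%) had at least 1 of the 3 and 6 (2.86%) had all 3. Of the 10 with Crh, 9 had Gal and 7 had Cartpt, while none had Tac2, Calb2, Calb1 or Meis2 and 6 had Vgf, a granin-like secretory protein. Cartpt was found in 34.3% of the Gal-positive members and 9.14% of the others.

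A second set of members had Calb2 or Meis2, a homeodomain transcription factor: 84 members (40.0%) had at least 1 of these, and 8 (3.81%) had 1 from each set. Calb2 was found in 11.4% of the Gal-positive members and 33.1% of the others, and Meis2 in 2.86% and 21.7%. Dlk1 went the other way, in 21 of the 35 Gal-positive members and 27.4% of the others. Tac2 and Tac1 hardly differed, at 25.7% against 25.1% and 11.4% against 12.6%. Calb2 and Meis2 were found together in 17 members, and Calb2 and Calb1, the calcium-binding protein calbindin, in 15. Asb4, Arhgap36 and Penk also overlapped: of 20 members with Asb4, 16 had Dlk1, 12 had Arhgap36 and 10 had Penk. None of Gal, Cartpt, Crh, Calb2 and Meis2 reached 2 UMIs in 83 members (39.5%). Depth moved with some of these classes: the Calb2-positive members had a median of 5497 UMIs against 3629.5, and the Gal-positive members 3439 against 4317. The Crh-positive members had a median of 23 Nts UMIs against 7. The part of depth in the overlaps was not tested.

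To test the combinations over animals, Gal-positive members were compared with members holding 0 Gal UMIs within each of the 4 mice that had at least 5 of both: control mouse 1 and high fat diet mice 1, 3 and 4. With 12 of 1735 genes past an adjusted p of 0.05 (0.692%; 7 higher, 0.403%, and 5 lower, 0.288%), the Gal-positive members had more Crh, Cartpt, Asb4, Tac1, Dlk1, Pcp4 and Scg2 and less Calb2, Calb1, Meis2, Elavl2 and Tac2. The test was edgeR's quasi-likelihood test with mouse as a block and Benjamini-Hochberg adjustment over all genes. Levels are in CPM, UMIs of the gene per 1000000 UMIs of those members in the mouse, and folds are on edgeR's log2 scale. The choice of Gal, Cartpt and Crh came from earlier results of these data, so the co-detection is not independent evidence. Ecel1, which the selection limited, averaged 102 CPM in the Gal-positive and 40.2 in the Gal-negative members, higher in 4 of 4 mice. Hmx3 averaged 33.4 and 0 CPM, and both rest on few UMIs. The Ecel1 or Hmx3 neurons were themselves high in Gal and Cartpt, at means of 2035 and 1860 CPM over 9 mice. Whether some Gal-positive members belong with those neurons was not tested.

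Crh stood at 75.6, 193, 96.4 and 1799 CPM in the Gal-positive members of control mouse 1 and high fat diet mice 1, 3 and 4, and at 0, 10.3, 0 and 0 in the Gal-negative members. The sets did not overlap, with 41 UMIs against 1, a ratio of 165 with a counting interval of 27.9 to 6654 (adjusted p = 3.51e-09, edgeR). These 41 UMIs were 1, 7, 2 and 31 in the same order of mice, so most came from high fat diet mouse 4. The counting interval does not cover the spread between mice. Cartpt stood at 75.6, 1678, 1301 and 9169 CPM against 64.1, 61.5, 0 and 143. It was higher in the Gal-positive members of every mouse, by little in control mouse 1, with a log2 fold change of 5.25 ± 0.47 (SE; adjusted p = 8.1e-05, edgeR). Pcp4, a calmodulin-binding peptide, stood at 2115, 2036, 3228 and 3308 CPM against 1036, 1189, 1332 and 2041, a log2 difference of 0.88 ± 0.16 (adjusted p = 3.79e-05, edgeR). Calb2 stood at 0, 138, 96.4 and 0 CPM against 908, 564, 449 and 779, with no overlap, and fell by 3.02 on the log2 scale (SE 0.43; adjusted p = 3.46e-09, edgeR). The calls on Cartpt, Pcp4 and Calb2 held when any 1 of the 4 mice was left out. That on Crh held without control mouse 1 or high fat diet mouse 3, and it had no value in the fits without high fat diet mouse 1 or 4. By DESeq2 the adjusted p was 0.0584 for Crh and 0.0804 for Pcp4.

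Each of the other calls was lost in at least 1 of the fits with a mouse left out. Scg2, a secretogranin of dense-core vesicles, stood at 4231, 4016, 2746 and 4991 CPM in the Gal-positive members against 2190, 2573, 1795 and 2908 (log2 0.69 ± 0.15, adjusted p = 0.00191, edgeR). It was higher in all 4 mice, but the adjusted p was 0.157 without control mouse 1, 0.124 without high fat diet mouse 4 and 0.479 without the 3 mice set apart. Tac2 stood at 151, 688, 674 and 58.0 CPM against 961, 933, 1100 and 1009, lower in all 4 mice (log2 -1.20 ± 0.26, adjusted p = 0.00191, edgeR). Its call was lost without control mouse 1 (adjusted p = 0.448), high fat diet mouse 3 (0.139) or high fat diet mouse 4 (0.211). Meis2 stood at 0, 110, 0 and 0 CPM against 481, 144, 376 and 241 (log2 -2.58 ± 0.62, adjusted p = 0.00836, edgeR), with adjusted p of 0.538, 0.401 and 0.0879 without the same 3 mice. Dlk1 stood at 1209, 578, 819 and 696 CPM against 502, 349, 565 and 121, higher in all 4 mice, with a log2 difference of 1.03 and an adjusted p of 0.0191, but 0.538 without control mouse 1, 0.0926 without high fat diet mouse 3 0.656 without high fat diet mouse 4 and 0.204 without the 3 mice set apart.

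Calb1 had 2 UMIs in the Gal-positive and 75 in the Gal-negative members, a ratio of 9.35 with a counting interval of 2.50 to 78.6 (adjusted p = 0.023, edgeR; 0.234 without control mouse 1 and 0.0731 without the 3 mice set apart). Asb4, Tac1 and Elavl2, a neuronal RNA-binding protein, had log2 differences of 3.02, 1.40 and -2.48 with adjusted p of 0.00842, 0.0186 and 0.0191. Asb4 was higher in 3 of the 4 mice, and its call was lost without control mouse 1 (adjusted p = 0.448), high fat diet mouse 1 (0.126) or high fat diet mouse 4 (0.0502). Tac1 lost its call without control mouse 1 (0.659) or high fat diet mouse 3 (0.577) and without barcodes rich in oligodendrocyte markers (0.094), and Elavl2 without the same mice (0.448 and 0.282). Of 6 neuropeptide precursors tested, 3 were higher and 1 lower, with a median log2 difference of 1.43, and of 8 calcium-binding protein genes 2 were lower, with a median of -0.67, while the median over all genes tested was -0.03. In this comparison DESeq2 called 3 genes, cells thinned to 1000 UMIs gave 3, a fit with no mouse block gave 1 and leaving out the 3 mice set apart gave 7.

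**Figure D2:**
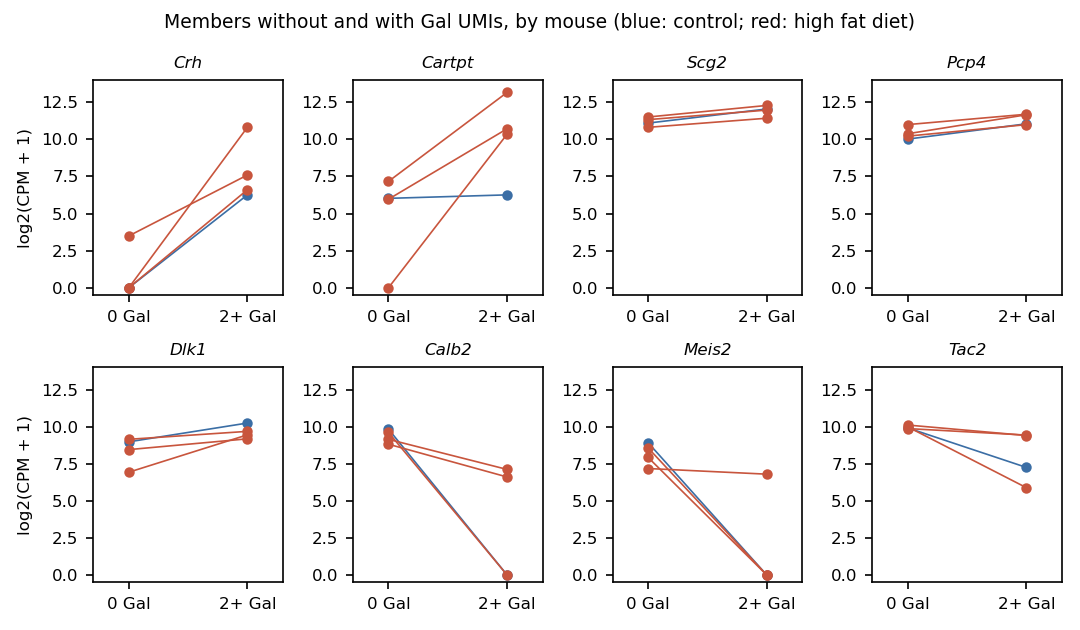
Levels of 8 genes, as log2(CPM + 1), in Gal-negative (0 UMIs) and Gal-positive (2 or more UMIs) members of the same mouse, each line joining 1 of 4 mice, blue for control and red for high fat diet. Crh, Cartpt, Scg2, Pcp4 and Dlk1 were higher and Calb2, Meis2 and Tac2 lower in the Gal-positive members of each mouse.

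Cartpt-positive members could be set against Cartpt-negative ones in high fat diet mice 1 and 4 alone, where 8 of 1280 genes passed (0.625%; 6 higher, 0.469%, and 2 lower, 0.156%). Lamp5, a membrane protein of GABAergic neurons, stood at 381 and 389 CPM in the Cartpt-positive members against 30.1 and 111 (log2 2.55, adjusted p = 0.0083, edgeR). Tac2 stood at 1759 and 1684 CPM against 561 and 555 (log2 1.61, adjusted p = 5.97e-06, edgeR). It was lower in the Gal-positive members of the 4 mice tested, though over all members its share hardly differed with Gal. Vgf stood at 264 and 821 CPM against 20.0 and 264 (log2 2.06, adjusted p = 0.000825, edgeR). Gal and Crh were higher by 2.59 and 2.90 on the log2 scale, Nrsn1 by 1.19, and Calb2 was lower by a log2 difference of -1.83. These calls rest on 1 residual degree of freedom, DESeq2 called 0 genes (7 at an unadjusted p under 0.05), and thinned cells and a fit with no mouse block also gave 0 calls.

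Set against the other GABAergic neurons of the same 9 mice, the members had more transcripts of Arhgap36, Hmgn5, Lmo4 and Pbx3 and fewer of Tcf4, Rab3b, Cck and several oligodendrocyte genes. The comparison asks how neurotensin neurons differ from their GABAergic neighbours in genes the selection did not use. With mouse as a block, 122 of 6575 genes passed (1.86%; 59 higher, 0.897%, and 63 lower, 0.958%) by edgeR's quasi-likelihood test with Benjamini-Hochberg adjustment. The median log2 difference of all genes tested was 0.01. A range over mice is given from the lowest through the median to the highest of the 9 mice.

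Arhgap36, an inhibitor of protein kinase A, ranged from 56.4 through 141 to 263 CPM in the members and from 31.1 through 48.2 to 82.7 in the other GABAergic neurons. It was higher in 8 of the 9 mice, with a log2 difference of 1.498 ± 0.24 (SE; adjusted p = 0.000237, edgeR). Most of the excess lay in the control mice, at 141 to 263 CPM against 31.1 to 82.7. In high fat diet mice 1 to 4 the members stood at 59.7, 56.4, 62.9 and 63.7 CPM against 36.2, 50.0, 48.2 and 65.7. Hmgn5, a nucleosome-binding protein, stood at 176, 324, 171, 79.1 and 42.3 CPM in control mice 1 to 5 and at 134, 101, 94.4 and 109 in high fat diet mice 1 to 4, against 40.8 to 79.2 in the other GABAergic neurons. Control mice 4 and 5 fell within the range of the others, and the log2 difference was 1.19 ± 0.18 (adjusted p = 9.64e-08, edgeR). Pbx3, a homeodomain transcription factor, stood at 115, 40.5, 59.6, 71.2 and 70.5 CPM in the control and 67.2, 101, 83.9 and 63.7 in the high fat diet mice, against 25.1 to 45.4. It was higher in all 9 mice (log2 1.09 ± 0.23, adjusted p = 0.000464, edgeR), and the ranges overlapped through control mouse 2.

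Lmo4, a LIM-only transcriptional cofactor, ranged from 40.5 through 135 to 353 CPM against 33.6 through 79.4 to 97.1, higher in all 9 mice (log2 0.95 ± 0.16, adjusted p = 7.76e-06, edgeR). The noncoding transcript A230065H16Rik rose by 1.10 on the log2 scale. The other named genes with higher levels changed less: Arhgdig by 0.62, Lypd1 by 0.59, Dgkb (a diacylglycerol kinase) by 0.59, Aldoc by 0.40, Sparcl1 by 0.39 and Vsnl1 (a neuronal calcium sensor) by 0.32. Aldoc and Sparcl1 are also astrocyte transcripts, and the part of the astrocyte marker sums given above in their rise was not tested. Without the 3 mice set apart, Dgkb was at 0.46 with an adjusted p of 0.0598 and Sparcl1 at 0.25 with 0.238.

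On the lower side, Tcf4, a basic helix-loop-helix transcription factor, stood at 17.6, 0, 29.8, 23.7 and 0 CPM in control mice 1 to 5 and at 0, 45.1, 42.0 and 45.5 in high fat diet mice 1 to 4. The other GABAergic neurons lay between 74.7 and 179 CPM, above every value of the members, and the difference was -2.17 ± 0.26 on the log2 scale (adjusted p = 2.52e-12, edgeR). Rab3b, a GTPase of secretory vesicles, stood at 35.3, 40.5, 22.3, 39.6 and 28.2 CPM in control and 52.3, 33.8, 83.9 and 81.9 in high fat diet mice, against 119 to 193. It too did not overlap (log2 -1.61 ± 0.20, adjusted p = 4.71e-12, edgeR). Cplx1, a complexin that acts in vesicle fusion, ranged from 169 through 231 to 291 CPM against 305 through 337 to 411, again without overlap, at -0.59. Cck, the cholecystokinin precursor, had 1 UMI in the members and 455 in the other GABAergic neurons, a ratio of 45.0 with a counting interval of 8.04 to 1782. Gda and Nrip3 were lower by log2 differences of -1.01 and -0.997.

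The remaining named genes on that side belong to oligodendrocytes, whose markers differed between the sets. Trf, Apod, Car2, Ermn, Mag and Cnp differed by -2.56, -2.50, -2.45, -2.28, -1.72 and -1.47 on the log2 scale, and all 6 oligodendrocyte markers tested were lower, with a median of -1.75. Barcodes with at least 1% of UMIs from oligodendrocyte markers were 95 of the other GABAergic neurons (3.86%) and 2 members (0.952%), both from high fat diet mouse 1. Leaving such barcodes out gave 100 calls, of which 93 were shared, and took Ermn to -1.44 (adjusted p = 0.0695), Mag to -0.22 (0.949) and Cnp to -0.23 (0.954).

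**Figure D3:**
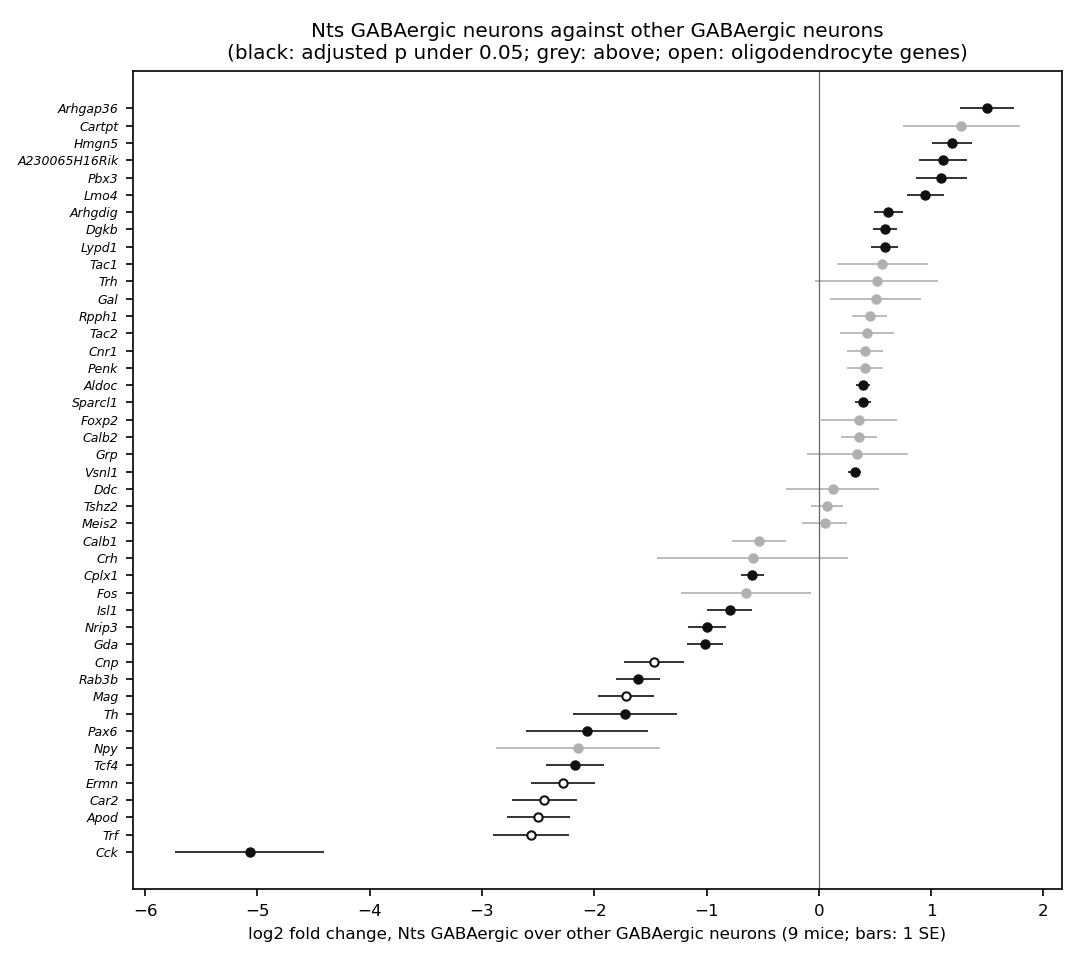
Log2 fold change, Nts GABAergic neurons over other GABAergic neurons of the same 9 mice, with bars of 1 SE; black points passed an adjusted p of 0.05, grey did not, and open points are oligodendrocyte genes. Tcf4 lay at -2.17 and Rab3b at -1.61, while Gal, Cartpt and Crh did not pass.

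Gal, Cartpt and Crh did not pass in this comparison. Gal stood at 494, 0, 22.3, 309 and 339 CPM in the members of control mice 1 to 5 and at 851, 180, 566 and 410 in high fat diet mice 1 to 4, against 157 to 316 in the other GABAergic neurons (log2 0.50 ± 0.41, adjusted p = 0.818, edgeR). The members spread on both sides of the other neurons. Cartpt stood at 61.7, 80.9, 89.4, 340 and 70.5 CPM in control and 500, 147, 283 and 2166 in high fat diet mice (log2 1.27 ± 0.52, adjusted p = 0.458, edgeR). High fat diet mouse 4 was far above the rest. Crh averaged 53.2 ± 98.8 CPM (SD, n = 9) against 90.5 ± 94.5, with 309 in high fat diet mouse 4 (log2 -0.59 ± 0.85, adjusted p = 0.933, edgeR).

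By role, the members differed little from the other GABAergic neurons in most gene groups. Of 15 neuropeptide precursors tested, none was higher and 2 were lower, Cck and Avp (vasopressin, 2 UMIs against 217, a ratio of 10.7 with a counting interval of 2.94 to 89.2), with a median log2 difference of 0.14. Penk and Tac2, at 0.41 and 0.43, did not pass (adjusted p = 0.370 and 0.674, edgeR), though Penk passed without control mouse 2 (adjusted p = 0.00656) or control mouse 4 (0.000922). Of 21 genes of dense-core vesicles and prohormone processing, Rab3b alone passed, and the median was -0.06. None of 8 neurotensin receptor, sorting and peptidase genes passed, with a median of 0.22.

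Of 15 leptin and insulin signalling genes, Irs4, an insulin receptor substrate, was higher by 0.92 (adjusted p = 0.00855, edgeR), and the median was 0.00. Gabra3, a GABA-A receptor subunit, was higher by 0.33. None of 30 voltage-gated channel genes and none of 11 ionotropic glutamate receptor genes passed, with medians of 0.02 and -0.04. Slc17a8, the vesicular glutamate transporter VGLUT3, was higher by 2.65 (adjusted p = 0.0121, edgeR), from 27 UMIs in 6 members.

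Of 35 transcription factors of hypothalamic neurons, 2 were higher (Lmo4 and Lhx1, at 0.86) and 5 lower, with a median of -0.03. Besides Tcf4, the lower ones were Zic1 at -2.03, Pax6 at -2.06, Bcl11a at -1.15 and Isl1 at -0.79. Isl1, a LIM-homeodomain factor, ranged from 14.1 through 47.5 to 159 CPM in the members against 68.9 through 105 to 139, overlapping widely (adjusted p = 0.00885, edgeR; 0.077 without control mouse 3 and 0.0728 without high fat diet mouse 4). Pax6 (adjusted p = 0.0141) was at 0.0804 without control mouse 1, 0.0933 without control mouse 3 and 0.229 without the 3 mice set apart. Th, tyrosine hydroxylase, was lower by a log2 difference of -1.72 (adjusted p = 0.0185, edgeR), but 0.156 without high fat diet mouse 1, 0.149 without high fat diet mouse 3 and 0.314 without the 3 mice set apart. Pvalb, parvalbumin, had 2 UMIs against 261, and Egr1 was the 1 immediate early gene of 6 to pass, at -0.81. Without the 3 mice set apart 88 genes passed (24 higher and 64 lower), of which 68 were shared, and thinned cells gave 21 calls.

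The members were next set against the 209 GABAergic neurons in which Sst had 3 or more UMIs and exceeded Nts, in the 8 mice with enough of both (no control mouse 2). Lamp5, Gpr101, Prlr, Penk and Irs4 were higher in the members, and Vip, Tcf4, Rab3b, Isl1, Hpcal1 and Pcsk2 were lower. In all, 103 of 3695 genes passed (2.79%; 51 higher, 1.38%, and 52 lower, 1.41%). Median depth was 4056.5 UMIs in the members and 4005 in the Sst neurons.

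Lamp5 ranged from 23.7 through 97.0 to 169 CPM in the members and from 0 through 9.08 to 29.0 in the Sst neurons (log2 3.18 ± 0.47, adjusted p = 1.29e-06, edgeR). It was higher in 8 of 8 mice although control mice 1 and 4, the lowest of the members, lay within the Sst range. Gpr101, an orphan receptor, ranged from 55.4 through 112 to 150 CPM against 0 through 20.3 to 52.4, with no overlap (log2 1.99 ± 0.36, adjusted p = 0.000102, edgeR). Prlr, the prolactin receptor, ranged from 52.1 through 122 to 194 CPM against 0 through 21.2 to 66.2 (log2 2.01 ± 0.34, adjusted p = 2.93e-05, edgeR). Penk averaged 387 ± 216 CPM (SD, n = 8) against 73.5 ± 82.1 and was higher in 8 of 8 mice (log2 2.35 ± 0.40, adjusted p = 0.0158, edgeR). Other rises were found for Irs4 (2.06), Rprm (1.64), Ldb2 (1.51), Gabra5 (1.10), Dgkb (0.98), Klhl13 (0.98), Kcnip4 (0.97), Arhgdig (0.91), Lmo4 (0.79), Aldoc (0.67), 6330403K07Rik (0.45) and Ahi1 (0.39), on the log2 scale.

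Vip, the precursor of vasoactive intestinal peptide, had 1 UMI in the members and 67 in the Sst neurons, a ratio of 69.8 with a counting interval of 12.1 to 2797, but its median over mice was 0 in both. Isl1 averaged 60.6 against 194 CPM (log2 -1.72 ± 0.24, adjusted p = 1.29e-06, edgeR). Hpcal1, a calcium sensor, ranged from 155 through 288 to 349 CPM against 199 through 666 to 1046 (log2 -1.18 ± 0.14, adjusted p = 8.18e-09, edgeR). Pcsk2, a convertase that cuts prohormones, ranged from 71.2 through 96.6 to 192 CPM against 75.7 through 270 to 419 (log2 -1.14 ± 0.19, adjusted p = 1.92e-05, edgeR). Both overlapped the Sst neurons at the low end. Rgs7bp, an anchor of regulators of G protein signalling, did not overlap, at 42.0 through 111 to 141 CPM against 157 through 246 to 331. Also lower were Pax6 (-3.19), Tcf4 (-2.28), Th (-2.43), Rab3b (-2.03), Nrip3 (-1.30), Ntm (-1.11), Chn2 (-1.01), Chrm2 (-0.93), Ncald (-0.69), Abat (-0.63) and Atp1b1 (-0.37).

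Gal stood close in both sets, at 396 ± 252 CPM (SD, n = 8) in the members and 371 ± 245 in the Sst neurons, a log2 difference of -0.04 ± 0.58 (SE) with an adjusted p of 0.989 (edgeR). Cartpt (2.04, adjusted p = 0.190) and Crh (0.46, adjusted p = 0.954) did not pass. Of 12 neuropeptide precursors tested, Penk was higher and Vip lower, with a median of -0.08, and of 16 transcription factors 1 was higher and 3 lower, with a median of -0.38, against 0.01 over all genes. Without the 3 mice set apart 98 genes passed, 77 of them shared, while thinned cells gave 15.

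The 782 GABAergic neurons with Ecel1 or Hmx3 held a similar number of cells with 3 or more Nts UMIs (198), and against them the members had less Gal, Isl1, Asb4 and Crem and more Cnr1, Vsnl1, Snap25, Lmo4 and Ldb2. Of 4206 genes tested in 9 mice, 139 passed (3.3%; 67 higher, 1.59%, and 72 lower, 1.71%). Gal stood at 1788, 1669, 1373, 999.6 and 2581 CPM in the Ecel1 or Hmx3 neurons of control mice 1 to 5 and at 4003, 1495, 2394 and 2011 in those of high fat diet mice 1 to 4. The highest member value, 851 CPM, lay under all of these (log2 -2.51 ± 0.31, adjusted p = 0.00197, edgeR). Isl1 averaged 62.9 against 234 CPM (log2 -1.95 ± 0.18, adjusted p = 8.77e-17, edgeR). Crem, a cAMP-responsive transcription factor, ranged from 0 through 10.5 to 45.5 CPM against 46.4 through 63.0 to 112, without overlap (log2 -2.07).

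Cartpt and Crh differed by -2.25 and -1.34 on the log2 scale without passing (adjusted p = 0.182 and 0.535, edgeR). Both rested on high fat diet mouse 4, without which the differences were -3.17 (adjusted p = 0.00229) and -2.76 (adjusted p = 2.58e-09). Asb4, a ubiquitin ligase component of hypothalamic neurons, averaged 76.9 against 182 CPM (log2 -1.23, adjusted p = 6.04e-08, edgeR). The acetylcholine genes Chat and Slc5a7 had 1 and 3 UMIs in the members against 203 and 312, ratios of 43.2 (counting interval 7.66 to 1714) and 22.1 (7.50 to 108). Avp had 2 against 1019, a ratio of 108 (29.9 to 896). Of 20 dense-core vesicle genes 4 were lower (Rab3b -1.59, Scg3 -0.52, Ptprn -0.49 and Resp18 -0.35) and none higher, with a median of -0.18. Tcf4, Tmem176b, Serpine2, Gpx3 and Cst3 were lower by log2 differences of -1.91, -1.44, -1.06, -0.86 and -0.53.

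On the higher side, Cnr1, the cannabinoid receptor CB1, ranged from 81.9 through 136 to 158 CPM in the members against 33.6 through 54.1 to 94.8 (log2 1.08 ± 0.19, adjusted p = 1.46e-05, edgeR), higher in 9 of 9 mice. Vsnl1 ranged from 1326 through 1623 to 1942 CPM against 1031 through 1131 to 1316, with no overlap (log2 0.47 ± 0.06, adjusted p = 9.24e-10, edgeR). Of 5 neuron markers 3 were higher: Rbfox3 by 0.61, Syt1 by 0.46 and Snap25 by 0.43. The rest were A230065H16Rik (1.84), Lhx1 (1.67), Ldb2 (1.36), Cacna2d1 (1.36), Lmo4 (1.15), Lypd1 (1.08), Serpini1 (1.03), Car10 (1.00), Vamp1 (0.86) and Scn1a (0.62). The median depth of the Ecel1 or Hmx3 neurons was higher, thinned cells gave 7 calls, and without the 3 mice set apart 96 genes passed, 74 of them shared.

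No gene in the members passed between the diets: 0 of 3308 tested (0%) by edgeR's quasi-likelihood test with Benjamini-Hochberg adjustment and sequencing pool as a covariate, in 5 control and 4 high fat diet mice. At an unadjusted p under 0.05 there were 98 genes, and DESeq2 called 0, with 46 at that level. On simulated counts of these members the same fit called 45.7% of genes changed 2-fold and 92.9% of those changed 4-fold. Many 2-fold differences would therefore not be called at this depth. The simulation gave each gene the spread typical of its level and no pool difference. It therefore does not hold for genes that vary more between mice. Cartpt did not pass at a log2 difference of 2.39 ± 1.14 (SE; adjusted p = 0.997, edgeR). The genes with the smallest p are given as values. Groups of 5 and 4 mice fail to overlap by chance in 1.59% of genes. These genes were picked by p from 3308, so a lack of overlap among them adds no support.

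Arhgap36 stood at 220.5, 263, 141, 182 and 254 CPM in the members of control mice 1 to 5 and at 59.7, 56.4, 62.9 and 63.7 in high fat diet mice 1 to 4. The groups did not overlap (log2 -1.72 ± 0.33, adjusted p = 0.0635, edgeR), and the difference was -1.66 in pool 1 and -1.89 in pool 2, the latter from 1 high fat diet mouse. It passed with no pool covariate (-1.73, adjusted p = 0.0315), without control mouse 3 (-1.90, adjusted p = 0.023) or high fat diet mouse 1 (-1.70, adjusted p = 0.0319). The mice with too few members for the test did not follow: 7 members of high fat diet mouse 5 had 22 UMIs, or 513 CPM, and high fat diet mouse 6, control mouse 6 and control mouse 7 stood at 79.9, 77.9 and 0. With every mouse of 5 or more members the difference was -0.91.

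Ndn, the Prader-Willi region gene necdin, stood at 670, 1234, 998, 957.5 and 1030 CPM in control and at 1314, 2322, 1741 and 1283 in high fat diet mice, without overlap (log2 0.81 ± 0.17, adjusted p = 0.117, edgeR). It passed without control mouse 2 (0.95, adjusted p = 0.0411), without high fat diet mouse 1 (0.90, adjusted p = 0.0047) and without the 3 mice set apart (0.92, adjusted p = 0.000394). By pool it was 0.61 in pool 1 and 1.22 in pool 2, where 1 high fat diet mouse stood beside 2 controls, and in the mice with few members it stood at 1470 and 79.9 CPM in high fat diet mice 5 and 6 and at 1401 and 0 in control mice 6 and 7. Rpph1, the RNA of ribonuclease P, stood at 115, 20.2, 67.0, 79.1 and 70.5 CPM against 239, 169, 147 and 337, also without overlap (log2 1.51 ± 0.35, adjusted p = 0.167, edgeR).

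Among the peptides, Penk stood at 564, 223, 745, 222 and 592 CPM in control and at 336, 248, 178 and 209 in high fat diet mice (log2 -0.996), overlapping. It passed only without the 3 mice set apart, among the alternatives run (-1.40, adjusted p = 0.000394, edgeR). Cartpt, Gal and Tac2 had log2 differences of 2.39, 1.01 and 0.68, each with an adjusted p of 0.997. Lrpprc (1.07), Pcp4 (0.52) and Mocs2 (0.82) were the other genes with the smallest p among the positive differences. Among the negative ones, Ppp1r9a, Kmt2a, Unc80 and Map1lc3b had -0.87, -0.85, -0.82 and -0.74, and Ppp1r9a passed without high fat diet mouse 1 (-1.14, adjusted p = 0.0223).

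**Figure D4:**
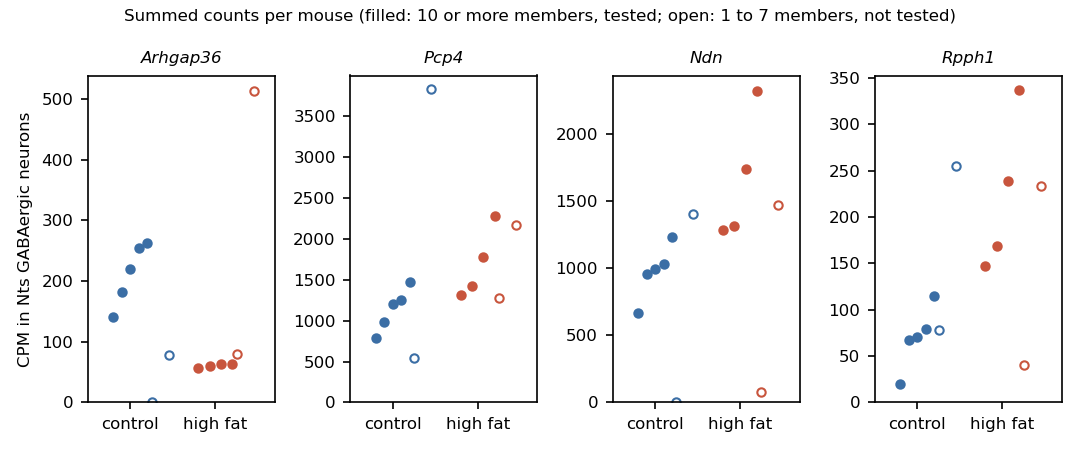
CPM of Arhgap36, Pcp4, Ndn and Rpph1 in the members of each mouse by diet; filled points are mice with 10 or more members, which entered the test, and open points are mice with 1 to 7 members, which did not. Filled points of Arhgap36, Ndn and Rpph1 do not overlap between the diets, while the open points do not follow. The genes shown were picked by small p, and none passed between the diets.

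Whether the diet difference in the members departed from that in the other GABAergic neurons of the same mice was tested as an interaction, and 3 of 6575 genes passed (0.0456%; 2 higher, 0.0304%, and 1 lower, 0.0152%). Pcp4 stood at 1208, 1477, 1251, 791 and 987 CPM in the members of control mice and at 1419, 1307, 1783 and 2284 in those of high fat diet mice. The groups overlapped in the members, while the other GABAergic neurons averaged 862 ± 105 (SD, n = 5) and 860 ± 110 (n = 4), and the interaction was 0.60 ± 0.13 on the log2 scale (adjusted p = 0.0417, edgeR). It was lost without control mouse 1 (adjusted p = 0.592), control mouse 4 (0.178), control mouse 5 (0.576), high fat diet mouse 3 (0.115) or high fat diet mouse 4 (0.29), and without Scrublet doublets (0.0658). For Arhgap36 the other GABAergic neurons averaged 50.1 ± 22.8 and 50.0 ± 12.1 CPM, and the interaction was -1.83 ± 0.37 (adjusted p = 0.00405, edgeR), or 0.0817 without high fat diet mouse 4 and 0.688 in pool 1 alone.

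Ptgds, prostaglandin D synthase, an abundant transcript of oligodendrocytes and meninges, gave the largest of the 3 interactions, 2.73 ± 0.46 (adjusted p = 0.000145, edgeR). The members stood at 35.3, 20.2, 7.45, 15.8 and 42.3 CPM in control and at 224, 22.5, 52.4 and 72.8 in high fat diet mice, with high fat diet mouse 1 far above. Without that mouse the interaction was 1.90 (adjusted p = 0.357), without the 3 mice set apart 1.84 (0.841), without Scrublet doublets 2.12 (0.056), and with barcodes under 1% of oligodendrocyte-marker UMIs it was 0.93 (adjusted p = 1). DESeq2 called 0 genes in the interaction, with 129 at an unadjusted p under 0.05.

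The abundance of the members did not differ between the diets beyond the spread of mice. They were 11.2%, 9.35%, 5.57%, 6.29%, 4.03%, 11.4% and 4.76% of the GABAergic neurons in control mice 1 to 7 and 7.43%, 3.53%, 5.23%, 5.90%, 5.47% and 4.92% in high fat diet mice 1 to 6. Control mice 1, 2 and 6 were higher than every mouse on the high fat diet, and the rest overlapped. The values of control mice 6 and 7 rest on 4 of 35 and 1 of 21 GABAergic neurons. High fat diet mice 1 to 6 had 122 to 497. The means were 7.51 ± 3.08% (SD, n = 7) and 5.41 ± 1.28% (n = 6), two-sided exact permutation p = 0.155. The share was 7.71% against 6.19% in pool 1 (exact p = 0.514) and 7.25% against 4.64% in pool 2 (exact p = 0.4).

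Members with a Gal UMI were 25%, 0%, 9.09%, 15.0% and 8.33% in control mice 1 to 5 and 29.0%, 15.4%, 23.1% and 25.9% in high fat diet mice 1 to 4. Control mouse 1 overlapped the high fat diet mice, and the other controls were lower. The means were 11.5 ± 9.25% (SD, n = 5) and 23.4 ± 5.84% (n = 4), two-sided exact permutation p = 0.0635, or 0.190 adjusted over the 3 peptides. Without control mouse 1 the difference was 15.2 percentage points (exact p = 0.0286, unadjusted), and thinned it was 11.9 (exact p = 0.0476, unadjusted). At 2 or more Gal UMIs it was 9.68 (exact p = 0.127), and without the 3 mice set apart 10.7 (exact p = 0.1). Leaving out any other mouse gave exact p of 0.0714 to 0.143. In pool 1 the means were 11.4% and 26.0% (exact p = 0.2). All these p are unadjusted. In pool 2, 11.7% in 2 control mice stood beside 15.4% in 1 mouse on the high fat diet, with no test.

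Members with a Cartpt UMI averaged 18.6 ± 10.8% (SD, n = 5) in control mice and 16.9 ± 13.6% (n = 4) on the high fat diet (exact permutation p = 0.810, and 0.810 adjusted). Members with a Crh UMI averaged 3.38 ± 3.54% and 9.06 ± 11.6% (exact permutation p = 0.444 with n = 5 and n = 4, and 0.667 adjusted). High fat diet mouse 4 alone had 25.9% with Crh, and without it the difference was 0.0516 percentage points.

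**Figure D5:**
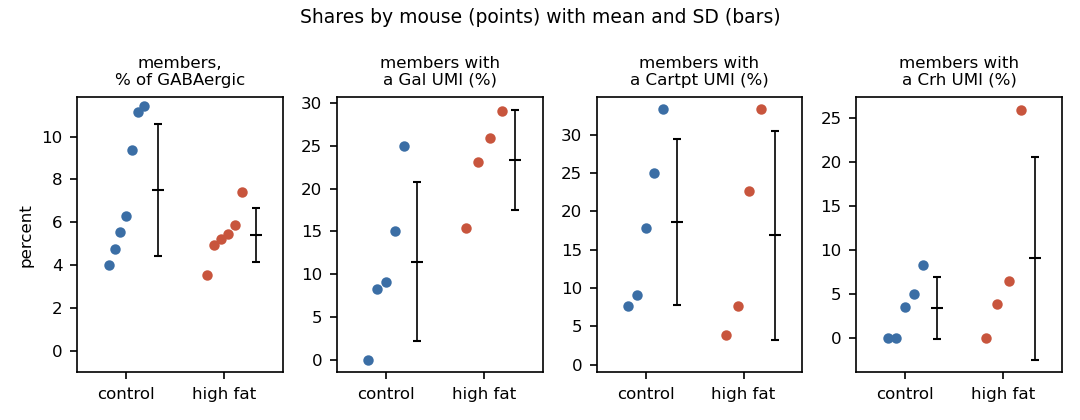
Percent per mouse, by diet, of GABAergic neurons that are members and of members with a Gal, Cartpt or Crh UMI; each point is 1 mouse, and the line and bar are the mean and SD. For Gal the high fat diet mice lie at 15.4% to 29.0% and the control mice at 0% to 25%.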

How the data were processed

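The deposited files hold UMI counts per gene and barcode, 1 table per mouse, which the authors made by Drop-seq. The submitters' processing notes name STAR 2.4.2a, Picard 2.2.4 and bcl2fastq 2.18.0.12 as tools and mm10 (GRCm38) as the build. How UMIs were counted, with which annotation, and how barcodes were picked: not given in the sources used here. Groups follow the diet in the labels. Within each mouse the UMIs of a set's cells were added up where it had at least 10 cells (5 for the splits by Gal or Cartpt), and the sums were tested with edgeR 4.0.16 (filterByExpr, TMM, quasi-likelihood), with mouse as a block for comparisons within mice, and pool as a covariate between diets. CPM is the gene's UMIs per 1000000 UMIs of the set. Shares were compared by exact permutation over mice. The other GABAergic neurons include the Sst set. DESeq2 1.42.0, other scalings, filters, thinning and left-out mice served as alternatives. The fits were tested on simulated data. Mouse numbers do not pair the diets. Named genes were, per direction, up to 12 that passed and were used by neither selection nor split, taken by smallest p (5 where under 5 passed), plus a fixed list; genes from other lists are named where they passed, and some genes are not reported here. Sets and gene lists were chosen with earlier results of these data known. Other software was scanpy 1.11.5, scipy 1.17.1, numpy 2.4.6, pandas 2.3.3, Python 3.11.15, limma 3.58.1 and R 4.3.3.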

Additional observations from a re-analysis of the deposited data

Results flagged for a closer look

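Of 54 groups of 4 or 5 mice checked for a mouse far from the others, 2 were flagged, and chance alone flags about 5% of groups. Control mouse 4 had 340 CPM of Cartpt in its members, far above the other 4 control mice, which lay between 61.7 and 89.4. Control mouse 3 had 81.9 CPM of Cnr1, far under the other control mice. In 3 genes the diet difference in the members departed from that in the other GABAergic neurons of the same mice: Arhgap36 by -1.83, Pcp4 by 0.60 and Ptgds by 2.73 on the log2 scale.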

How the results depend on the processing

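No paired analysis was possible because the mice of the 2 diets carry different numbers in the labels. Comparisons within mice have the mouse as a replicate block; with no replicate block the calls were 12 against the other GABAergic neurons, 34 against the Sst neurons, 22 against the Ecel1 or Hmx3 neurons, 1 in the Gal split, 0 in the Cartpt split and 0 in the interaction. DESeq2 gave 63, 35, 89, 3, 0 and 0 calls in the same order. Cells thinned to 1000 UMIs gave 21, 15, 7, 3 and 0 in the first 5 of these. Leaving out each mouse in turn gave 86 to 116, 82 to 111, 112 to 145 and 4 to 12 calls in the first 4, 1 to 7 in the interaction and 0 to 3 between the diets. With no filter on low counts there were 215 calls against the Ecel1 or Hmx3 neurons, 6 in the interaction and 4 between the diets. Against the other GABAergic neurons, mice with 20 or more members gave 73. Without the 3 mice set apart there were 7 calls in the Gal split and 4 between the diets. Between the diets there was 1 call with no pool covariate and 1 in pool 2 alone. The interaction had 0 in pool 2 and 1 without Scrublet doublets. Pool 2 had 2 control mice and 1 high fat diet mouse with 1 residual degree of freedom, so its counts carry no weight.

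The difference in the share of members, high fat diet minus control, ran from -2.68 to -1.45 percentage points as each mouse was left out. For members with Gal it was 11.9 thinned, and 9.00 to 15.2 as each mouse was left out. For Cartpt it was 1.14 thinned, 3.63 at 2 or more UMIs and 8.37 in pool 1, and -7.22 to 2.61 as each mouse was left out. For Crh it was -6.67 in pool 2, and 0.0516 to 8.69 as each mouse was left out.

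Of the values for named genes under the alternatives, 2376 kept direction and call, 158 lost the call, 34 gained it and 46 changed sign, none of these a result that had passed. Between the diets, Calb1 was -0.049 with 20 or more members and -0.18 at 5 or more Nts UMIs; Cnr1 was 0.18 with 20 or more members, 0.023 at 2 or more Nts UMIs and 0.11 in pool 1; Cartpt was -0.66 and Gal -0.833 in pool 2; Isl1 was 0.035 at 2 or more Nts UMIs; and Meis2 was 0.29 at 5 or more, 0.30 in pool 2 and 0.34 without the 3 mice. Against the Sst neurons, Crh was -0.015 without the 3 mice, and Gal 0.66 thinned, 0.19 by DESeq2 and 0.055 with no replicate block. Against the other GABAergic neurons, thinned, Crh was 0.57, Ddc -0.30, Meis2 -0.10 and Tshz2 -0.17. By DESeq2, Ddc was -0.41 and Trh -0.38. Meis2 was -0.21 with 20 or more members, -0.056 unfiltered and -0.076 at 2 or more Nts UMIs. Tshz2 was -0.038 unfiltered and -0.018 at 5 or more Nts UMIs, where Trh was -0.10. As each mouse was left out, the diet difference ran from -0.37 to 0.12 for Cnr1, -0.49 to 0.055 for Isl1 and -0.38 to 0.36 for Meis2, and Gal against the Sst neurons from -0.28 to 0.37. Against the other GABAergic neurons it ran from -0.40 to 0.33 for Ddc, -0.26 to 0.71 for Grp, -0.079 to 0.15 for Meis2 and -0.041 to 0.14 for Tshz2. The cause was not tested.

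The Crh split was not run, since 1 mouse had enough Crh-positive members, nor was the Cartpt split with a mouse left out. The filter on oligodendrocyte-marker UMIs and the interaction by pool were chosen after seeing the data. Depth limits the peptides: Crh rests on 10 members.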
